A study of Schizosaccharomyces pombe with 2 samples.

Results

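The genes of the Hsp70 and Hsp90 chaperones and their partners were described in the fission yeast Schizosaccharomyces pombe, in a wild-type strain and in a strain with deleted subtelomeres. The members were chosen by gene name: swo1, sti1 and cdc37 of the Hsp90 system, ssa1, ssa2 and sks2 of the Hsp70 family, the J-domain genes mas5 and psi1, and the disaggregase genes hsp104 and hsp78. A member was measured where its symbol or synonym led to an S. pombe probe set, a group of short DNA probes read as 1 value, with a signal above 0. That held for 8 of the 10 genes, out of 2896 named S. pombe genes with such a signal, and each of the 8 had 1 probe set. The wild-type strain, JP1225, has the mating type h-, and so does ST3479, the subtelomere-deleted strain called SD5. Both grew exponentially at 32 °C in the rich medium YES, and polyadenylated RNA of each was hybridised to 1 array. With 1 array per strain no test was possible, a strain cannot be told apart from its culture, and each ratio describes these 2 arrays. The labels do not name the subtelomeres that SD5 lacks.

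Chaperones bind unfolded or unstable proteins and help them to fold. Hsp70 proteins bind and release short stretches of protein under the control of ATP, J-domain proteins bring clients to them and start ATP hydrolysis, and nucleotide exchange factors reset the cycle. Clients such as kinases and receptors pass on to Hsp90, with Sti1 as the bridge between both machines and Cdc37 as the adaptor for kinases. Hsp100 proteins pull proteins out of aggregates together with Hsp70. Many of these genes are targets of the heat shock factor Hsf1, which in fission yeast is held in check by the Hsp70 protein Ssa2 and the J-domain protein Mas5.

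The measured members lay far above background, the level that 95% of the probe sets without an S. pombe target did not exceed (17.7 in the wild-type array and 26.6 in SD5). The member nearest to it, ssa1, was 47.5 times the background in wild-type cells and 21.3 times in SD5. SD5 signals were generally lower: the median log2 ratio of SD5 over wild-type was -0.20 over 4847 probe sets above background in both. All ratios below are log2 ratios of SD5 over wild-type after this shift was subtracted, unless they are called uncentred. The 3′ control signal of actin exceeded its 5′ signal 2.18 times in wild-type cells and 2.33 times in SD5. Signals of different probe sets depend on their probes. Levels were therefore compared between arrays, and between probe sets only for distance from background and to find probe sets near in signal.

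None of the 8 members reached a 2-fold or a 1.5-fold difference between the strains. Among the 4905 S. pombe probe sets with a ratio, 0.815% were at least 2-fold lower in SD5 and 0.0612% at least 2-fold higher, while 1.28% were at least 1.5-fold lower and 0.387% at least 1.5-fold higher. Most of the 2-fold calls are bounds from probe sets below background in 1 array. Among the 4847 probe sets above background in both arrays, as all 8 members are, 0.165% differed by at least 2-fold and 0.908% by at least 1.5-fold in either direction. Against these shares, 0 of 8 members is near the background. The 40 probe sets at least 2-fold lower and the 3 higher became 14 and 0 with a higher background (the 10th percentile of S. pombe signals), and 58 and 12 with a lower one (the 75th percentile of the probe sets without a target). At 1.2-fold, a limit chosen after the values were seen, 1 member was lower, ssa1, and no member was higher. At that limit 4.3% of the 4905 probe sets with a ratio were lower and 2.67% higher. Among the 4847 above background in both arrays, 164 were lower and 130 higher. Without centring ssa1 and psi1 (-0.33) were past 1.2-fold on the low side, as were 28.8% of all probe sets. The median of the 8 members was 0.05, against 0.00 over all probe sets above background in both, and it was -0.0023 after loess normalization.

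**Figure D1:**
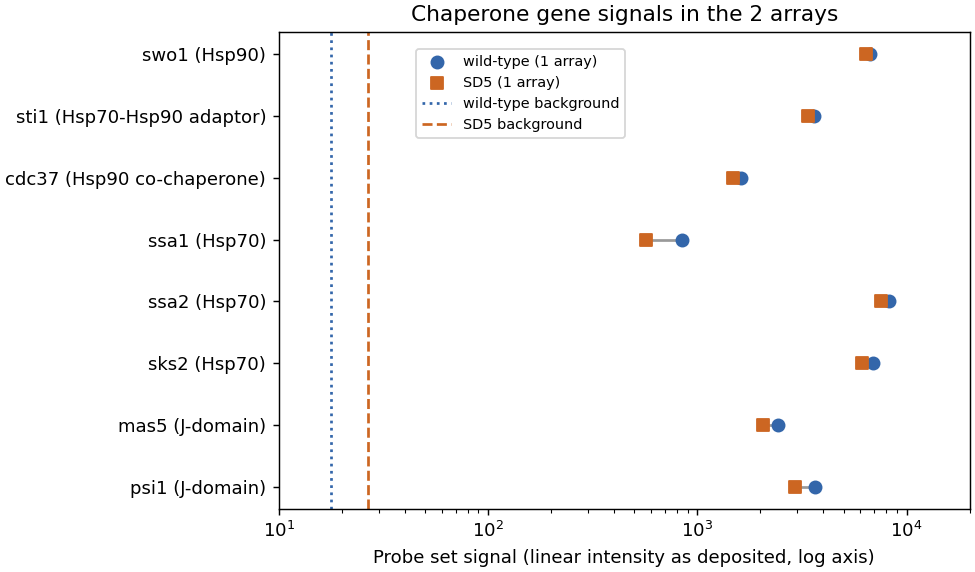
Signal of the 8 measured chaperone genes in the wild-type array (circles) and the SD5 array (squares), as deposited, on a log axis, with dotted and dashed lines at the background of each array. Every member lies well above both backgrounds, and ssa1 shows the widest gap, from 841 to 567. Positions of different genes along the axis depend on their probes and are not compared.

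The Hsp90 gene had close signals in both strains. The gene swo1 (SPOM_SPAC926.04C, current symbol hsp90) encodes the cytosolic Hsp90, which in fission yeast is needed by the cell cycle kinase Wee1. Its signal was 6676 in wild-type cells and 6372 in SD5, a log2 ratio of 0.14 or 1.10-fold. The ratio was 0.095 after quantile and 0.086 after loess normalization, 0.084 with centring on hybridisation controls and -0.07 without centring. Of the 500 probe sets nearest to swo1 in mean signal, 479 had a lower ratio and 21 a higher one. These 500 had a median ratio of 0.05 and a robust SD, the scaled median absolute deviation, of 0.051. Such a spread between probe sets within 1 pair of arrays is not a replicate error.

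Both Hsp90 partners among the members lay on the same side as swo1. The gene sti1 (SPOM_SPCC645.14C), whose product holds Hsp70 and Hsp90 together during client transfer, had 3591 in wild-type cells and 3397 in SD5, a ratio of 0.12. Of its 500 nearest probe sets, 469 had a lower ratio. The kinase adaptor gene cdc37 (SPOM_SPBC9B6.10) had 1613 and 1487, a ratio of 0.09, with 430 of 500 lower. The ratios of these 3 genes spanned 0.050 on the log2 scale, and sti1 differed from swo1 by -0.013. Their uncentred ratios were -0.07 for swo1, -0.08 for sti1 and -0.12 for cdc37, so their raw signals were lower in SD5 too. In the order of all ratios they stood at percentiles 89.4, 87.7 and 80.5.

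The Hsp70 genes were the most spread group, because of ssa1. The gene ssa1 (SPOM_SPAC13G7.02C), which encodes a cytosolic Hsp70, had 841 in wild-type cells and 567 in SD5. Its log2 ratio of -0.36, or 1.29-fold lower, was the lowest of the members and the 73rd lowest among 4847 probe sets. That rank was 47 of 4847 with the background as a pseudocount, 52 after quantile normalization and 81 after loess normalization. It was 37 of 4467 with the higher background and 92 of 4904 with the lower one. Of the 500 probe sets nearest in signal, 5 had a lower ratio, and the 500 had a median of -0.02 and a robust SD of 0.114. Before centring the ratio was -0.57. No replicate array shows whether another culture would give the same value.

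The second cytosolic Hsp70 gene, ssa2 (SPOM_SPCC1739.13), had 8213 in wild-type cells and 7528 in SD5, a ratio of 0.08. That of ssa2 was 0.0090 after quantile and 0.016 after loess normalization, 0.025 with centring on hybridisation controls and -0.13 without centring. The ribosome-associated Hsp70 gene sks2 (SPOM_SPBC1709.05) had 6929 and 6141, a ratio of 0.03, which turned negative (-0.02) after quantile or loess normalization and with centring on hybridisation controls, and was -0.17 without centring. Of the 500 probe sets nearest in signal, 356 lay below ssa2 and 193 below sks2. Within the family, the ratio of ssa1 was lower than that of ssa2 by a difference of -0.44 and than that of sks2 by -0.39, while ssa2 and sks2 were 0.05 apart. The difference between ssa1 and ssa2 does not depend on centring, and it lay between -0.44 and -0.34 under 9 other ways of processing the arrays. Only quantile normalization (-0.34), loess normalization (-0.36) and the background as a pseudocount (-0.41) could move it, and each made it smaller. The other ways shift both genes alike or leave them unchanged. The probe sets of ssa1 and ssa2 carry no suffix for probes that match several genes. How far their probes can bind the RNA of the other gene was not tested.

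The J-domain genes lay on the low side of the members. The gene psi1 (SPOM_SPCC830.07C), which encodes a J-domain protein of the type called Sis1 in budding yeast, had 3669 in wild-type cells and 2918 in SD5. Its ratio was -0.13, and of the 500 probe sets nearest in signal, 22 had a lower ratio (median 0.01, robust SD 0.069). The gene mas5 (SPOM_SPBC1734.11), whose product belongs to the type called Ydj1 in budding yeast, had 2439 and 2050, a ratio of -0.05, with 129 of 500 lower. The ratios of psi1 and mas5 differed by -0.08. Sorted from low to high, the order of the members was ssa1, psi1, mas5, sks2, ssa2, cdc37, sti1 and swo1. The step from ssa1 to psi1 was 0.24, and no later step exceeded 0.080, while the robust SDs around the members ran from 0.050 to 0.114. Without replicate arrays it cannot be said of any step, that from ssa1 included, whether it exceeds the variation between cultures or arrays.

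**Figure D2:**
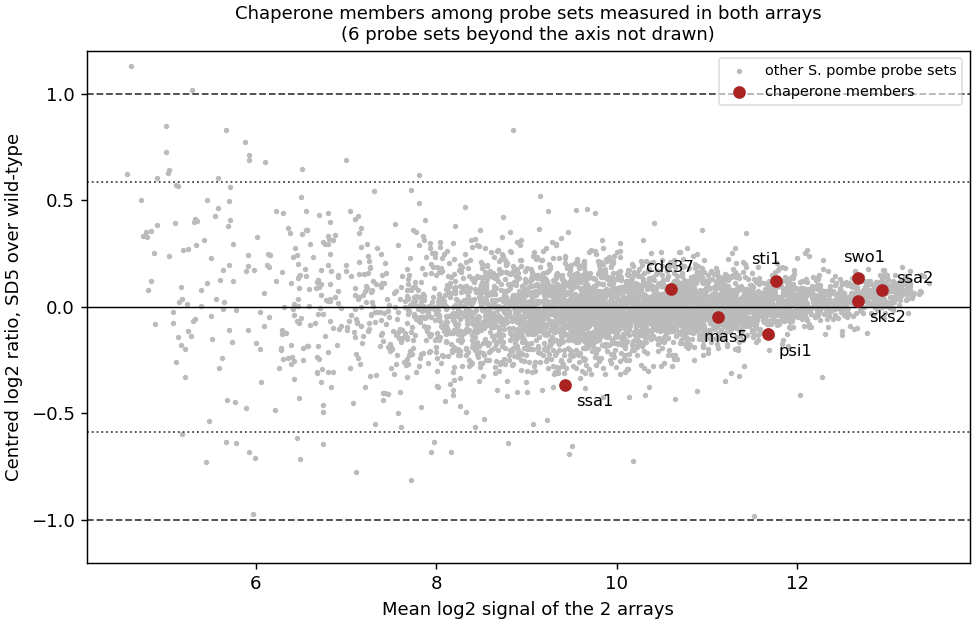
Centred log2 ratio of SD5 over wild-type (vertical) against the mean log2 signal of the 2 arrays (horizontal) for probe sets measured in both arrays, with the members in red, dotted lines at 1.5-fold and dashed lines at 2-fold. The gene ssa1, at -0.36, lies at the lower edge of the cloud and psi1, at -0.13, toward that edge. The genes swo1 and sti1, at 0.14 and 0.12, lie toward the upper edge. Not drawn are 6 probe sets beyond 1.2.

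The Hsp100 genes hsp104, of the cytosolic disaggregase, and hsp78, of its mitochondrial counterpart, were not analysed here. Their names led only to HSP104 and HSP78, which carry no S. pombe gene identifier. Names in capitals mark the budding yeast Saccharomyces cerevisiae, whose genes share this array. The capitalised names SSA1, SSA2, STI1 and CDC37 occur as well, and all 6 of these probe sets stood at 0 in the wild-type array. They entered no value above.

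The members lie away from the chromosome ends. Counted in protein-coding genes of the reference assembly ASM294v3, the nearest measured member was psi1, 95th from the right end of chromosome III, and the farthest was ssa1, 963rd from the left end of chromosome I. The genes sks2 and mas5 lie 10 places apart on chromosome II, with ratios of 0.03 and -0.05. Around ssa1, 7 of the 10 nearest protein-coding genes, 5 on each side, had a ratio. These ran from -0.14 to 0.23 with a median of -0.05, so none was as low as ssa1. Its immediate neighbours were erg7, of sterol synthesis, at 0.10, and upf3, of mRNA decay, at 0.12. Around the other measured members, the medians of the measured neighbours ran from -0.14 for sti1 to 0.08 for psi1.

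The other genes of the chaperone network had ratios close to 0. The wider lists held 41 genes besides the members, of which 29 were measured. Their median was 0.02, with 18 above and 11 below 0, and they ran from -0.10 to 0.18. After loess normalization 13 were above and 16 below 0. Without centring all 29 were below 0, where the median over all probe sets was -0.20. Over all 2865 named genes with a ratio, 1443 centred ratios were above 0 and 1422 below. None of the 29 reached 1.5-fold in either direction, as against 0.908% of the 4847 probe sets above background in both arrays. The count of 0 of 29 is near that share. These lists were compared with the members by counts and medians only.

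In the list of Hsp90 and its co-chaperones all 7 measured genes, members included, had a ratio above 0, with a median of 0.07. Over all 4847 probe sets above background in both arrays, 2423 were above 0 and 2423 below, by construction of the centring. Probe sets near in signal had a median ratio of 0.05 for swo1, 0.01 for sti1 and -0.01 for cdc37. Whether 7 of 7 exceeds what centring and signal alone would give was not tested. For the list, the count was 5 of 7 after quantile or loess normalization. It was 4 of 7 with centring on hybridisation controls and 0 of 7 without centring. In these settings the median over all probe sets was -0.05 and -0.20 in place of 0. The lowest ratio of the list, -0.04 and -0.19, lay above that median in both. The lowest of the list, cns1, which encodes a co-chaperone with TPR repeats, had 1883 in wild-type cells and 1651 in SD5 (0.01). The highest was swo1. In the list of Hsp70 and Hsp110 genes, 6 of 8 were measured, with a median of 0.05. Its lowest was ssa1, and its highest bip1, the Hsp70 of the endoplasmic reticulum, with 5051 and 4965 (0.18). The mitochondrial Hsp70 gene ssc1 had 6372 and 6073, a ratio of 0.13, and the Hsp110 gene pss1 had 6334 and 5471, a ratio of -0.01. Among Hsp70-type genes of different compartments, ssa1 was thus the lowest, with the next lowest at -0.01.

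Of the 11 J-domain genes listed, 5 were measured, with a median of 0.02. The highest was cwf23, linked to splicing, with 414 in wild-type cells and 399 in SD5 (0.15), and the lowest was psi1. The 4 measured nucleotide exchange factor genes had a median of -0.02. They ran from -0.06 for bag102, a BAG domain gene with 1958 and 1626, to 0.00 for mge1, the mitochondrial exchange factor gene, with 3097 and 2689. The BAG and Hsp110 proteins act on the same Hsp70 cycle as the J-domain proteins.

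The small heat shock protein genes, known for strong induction by stress, were 0.09 for hsp9 (8972 in wild-type cells and 8315 in SD5) and 0.06 for hsp16 (4634 and 4191). In the mitochondrial chaperonin, hsp60 (current symbol mcp60) had a ratio of 0.01 and its lid gene hsp10 one of 0.06. All 8 subunit genes of the CCT chaperonin, which folds actin and tubulin, were measured. Their median was 0.01, with 4 above and 4 below 0, from cct3 at -0.06 (4632 and 3871) to cct7 at 0.13 (2289 and 2182). The members other than ssa1 ran from -0.13 to 0.14. In the endoplasmic reticulum list, bip1 was the highest and the calnexin gene cnx1 the lowest (3202 and 2776, 0.00).

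Of the regulators, hsf1, the heat shock factor gene, had 1033 in wild-type cells and 837 in SD5, a ratio of -0.10. The stress regulator genes pap1 and atf1 had ratios of -0.05 and 0.05, the latter from 485 in wild-type cells and 438 in SD5. None of the regulators reached 1.5-fold.

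**Figure D3:**
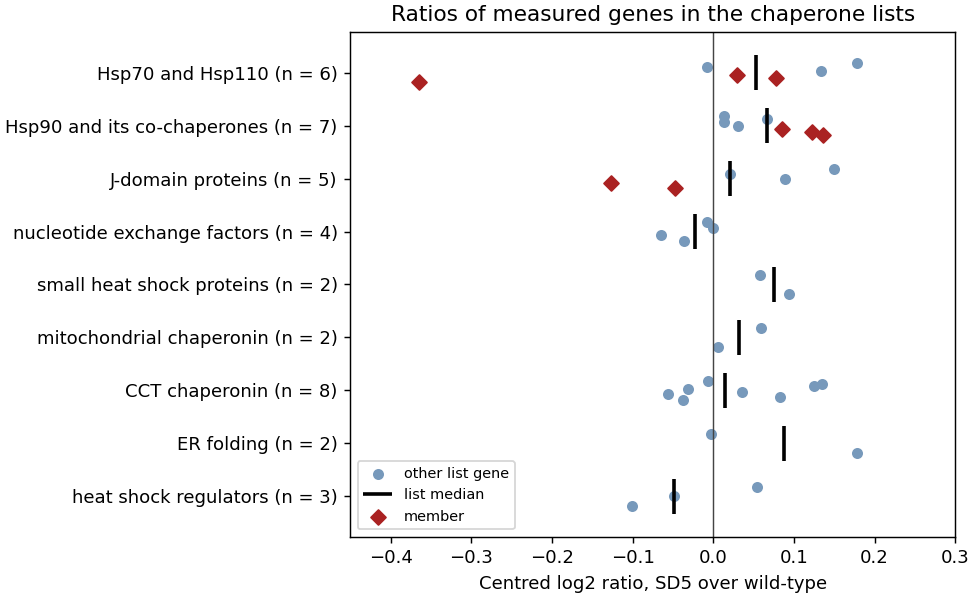
Centred log2 ratio of SD5 over wild-type for each measured gene of the chaperone lists, members as red diamonds and other genes as blue circles, with a black bar at each list's median; a gene in several lists is drawn in each. All genes lie between -0.13 and 0.18 except ssa1 at -0.36.

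How the arrays were scaled moved the small ratios of the members around 0, but left ssa1 lowest. Without centring all 8 members were below 0, from -0.57 for ssa1 to -0.07 for swo1, relative to a median of -0.20 over all probe sets. With centring on hybridisation controls, 4 members were above 0 and 4 below, but the median over all probe sets was then -0.05. That centring shifts all probe sets alike, so it does not move the members relative to other genes. After quantile or loess normalization 4 members were also above 0 and 4 below, with medians over all probe sets of 0.010 and -0.0030. In each of the 9 alternatives ssa1 was the lowest member and psi1 the next. Only quantile normalization, loess normalization and the background as a pseudocount could have changed this order. The other alternatives shift all 8 members alike or leave them unchanged. The ratios of ssa1 and psi1 were -0.33 and -0.12 after quantile normalization, -0.34 and -0.14 after loess normalization, and -0.35 and -0.14 with the pseudocount. The highest was swo1, except after quantile and loess normalization, where it was sti1 at 0.11. The gene ssa1 stayed below a 1.5-fold difference in all 9.

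**Figure D4:**
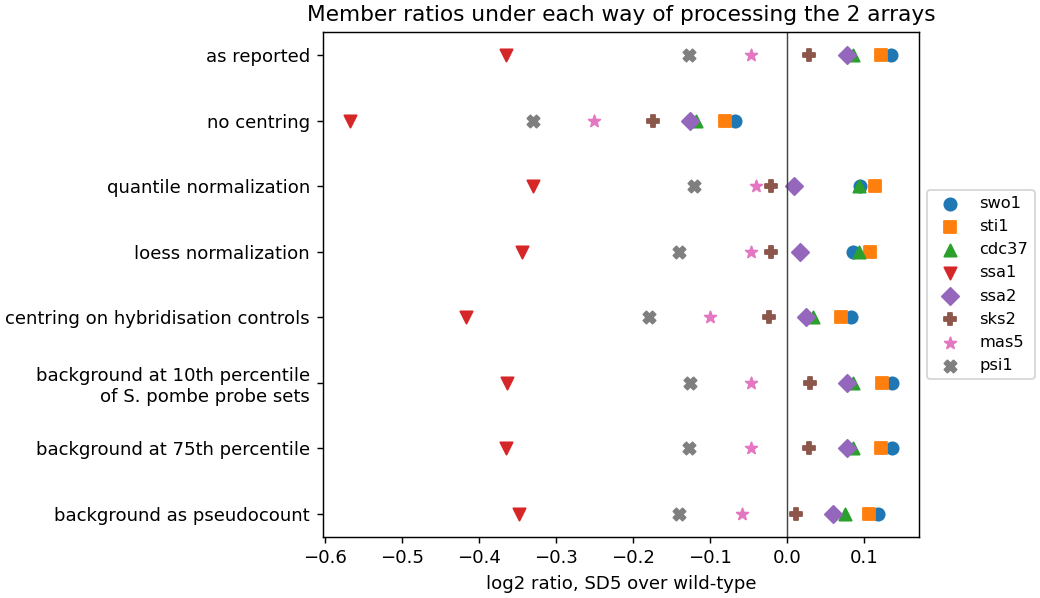
log2 ratio of SD5 over wild-type for the 8 measured members (one symbol each) as reported and under 7 alternatives; a further 2, which change how several probe sets of a gene are combined, gave the same values and are not drawn. The gene ssa1 is leftmost and psi1 next in every row, but only quantile normalization, loess normalization and the pseudocount could change the order. Without centring all members lie below 0.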

How the data were processed

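The table deposited by the authors gives 1 linear intensity for each probe set in each array, over 10928 rows. Of these, 5748 were 0 in the wild-type array. GCOS 1.4 is listed, per the submitters' processing notes, without its role, and probe summary and scaling are not stated in the labels. Per the labels' protocols, labelled RNA was made from oligo-dT purified RNA with a 3′ kit, which favours the 3′ parts of transcripts. Gene names came from the platform's table, matched by gene identifier to the S. pombe assembly ASM294v3. No probe coordinates were used because the labels name no build for the array. The order of genes along the chromosomes came from the gene starts of ASM294v3.

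Background was the 95th percentile of 79 control and reporter probe sets without an S. pombe target. Signals below it were set to it, the log2 ratio (SD5 over wild-type) was centred on its median over probe sets that both arrays measured above background, and a probe set below it in 1 array gave a bound. Several probe sets of a gene were averaged. The log2 functions were tested on simulated data. The number of arrays limits the precision.

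The members and the 10 gene lists were chosen with earlier results of these data known. Named genes are all members and the lowest and highest measured gene of each list; ssc1, pss1, pap1, erg7 and upf3 lie outside that rule and were chosen after their values were seen. Of 51 listed genes 37 were measured, and lhs1, caj1 and pam18 had no entry under these names in the reference table. Sequences were not used here. Alternatives were no centring, quantile and loess normalization (lowess, span 0.3), centring on 27 hybridisation control probe sets, another background (the 75th percentile of the same probe sets, or the 10th over S. pombe probe sets), background as a pseudocount, the brightest probe set, and no probe sets of several genes. Python 3.11.15, numpy 2.4.6, pandas 2.3.3, statsmodels 0.14.6 and matplotlib 3.10.9 were used.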

Additional observations from a re-analysis of the deposited data

How the results depend on the processing

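No paired analysis was possible because each strain has 1 array. A value counted as changed where it shifted by more than the robust SD of the ratios of probe sets near in signal, which is not a replicate error. No member passed 1.5-fold or 2-fold under the 9 alternatives. The ratio of ssa2 changed under 4 of them, those of swo1 and sks2 under 2 each, and that of each other member under 1. The median of the 8 members, 0.05, counted as changed under 1: it was -0.15 without centring, by construction near the removed shift of -0.20. Its limit, 0.067, is a spread of single probe sets and is wide for a median. Values of -0.0056 after quantile and -0.0023 after loess normalization, with the sign reversed, stayed within it. Without centring the list medians were -0.15 for Hsp70 and Hsp110, -0.14 for Hsp90 and its co-chaperones, -0.18 for J-domain proteins, -0.23 for nucleotide exchange factors and -0.13 for small heat shock proteins. They were -0.17 for the mitochondrial chaperonin, -0.19 for CCT, -0.12 for ER folding and -0.25 for the regulators. After quantile normalization the Hsp70 and Hsp110 median was -0.0056 and that of the mitochondrial chaperonin -0.021, and after loess normalization that of Hsp70 and Hsp110 was -0.0023. The bright probe sets near swo1, ssa2 and sks2 had a median ratio of 0.05, a trend with signal that loess normalization removes by construction. The difference between ssa1 and ssa2, -0.44, was chosen as a result after seeing the data. Only quantile normalization (-0.34), loess normalization (-0.36) and the pseudocount (-0.41) could move it, and none of these shifts counted as a change. Under the other alternatives it was fixed in advance, because they shift both genes alike or leave them unchanged. The ratio of ssa1 ran from -0.57 to -0.33. With 1 array per strain, differences as small as these cannot be told apart from variation between cultures or arrays.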
